A study of Mus musculus with 4 samples.

Results

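The 10 genes described here make or regulate the programmed DNA double-strand breaks of meiosis, or police the chromosome axes on which those breaks form: Spo11, Mei1, Mei4, Rec114, Ankrd31, Prdm9, Hormad1, Hormad2, Dmc1 and Trip13. They were taken by symbol from the deposited FPKM table and joined to the count table by gene identifier. All 10 were found, of 37653 genes in the FPKM table and 55335 in the count table. FPKM (fragments scaled to transcript length and library size) divides by transcript length and is used for levels between genes. CPM (counts scaled to library size) is used for 1 gene across libraries.

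The RNA came from cultured spermatogonial stem cells (SSCs), the mitotic germ cells that renew spermatogenesis, collected on a cell sorter. The labels give 2 Tex11PM/Y and 2 WT libraries, all from C57/BL6*DBA2 mice at postnatal day 10. Tex11 is an X-linked gene needed for crossovers in meiosis. What PM stands for, and how the allele was made, is not in the labels. Nor do they tell whether 2 libraries of 1 genotype had different animals or cultures as their source, so a p-value here reflects only the spread among these samples, which may be technical. The column names of the Tex11PM/Y libraries are identical, and the libraries are called A and B by their place in the table.

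Total counts were 19306140 (A) and 19804951 (B) for Tex11PM/Y, and 19047148 and 19396809 for WT replicates 1 and 2. The limit that a count of 0 allows, 3 counts, lay between 0.149 and 0.169 CPM, and intervals below cover counting error only. All 11 spermatogonial markers had counts in every library, with a summed level of 3750 and 2847 CPM in Tex11PM/Y and of 2560 and 2817 CPM in WT. They did not move together. With edgeR 8 had a log2 fold change of Tex11PM/Y over WT above 0 and 3 (Gfra1, Ret and Etv5) one below. Both Tex11PM/Y libraries lay above both WT libraries for Nanos3 (log2 fold change 1.24, edgeR unadjusted p = 0.0130) and Zbtb16 (0.91, edgeR unadjusted p = 0.0306). Neither passed after adjustment (edgeR adjusted p = 0.884 for each). Tex11 itself held 22.7 and 9.32 CPM in Tex11PM/Y and 66.4 and 126 CPM in WT (log2 fold change -2.59, edgeR adjusted p = 0.884). Between the genotypes 0 of 17262 tested genes were called higher and 0 lower with edgeR, against 1 with DESeq2. Fibroblast transcripts varied widely within each genotype, 8 markers together holding 390.0 and 4554 CPM in Tex11PM/Y and 13033 and 3546 CPM in WT.

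In meiosis a germ cell breaks its own chromosomes so that homologues can find each other and exchange DNA. SPO11, a relative of the topoisomerase that opens DNA, cuts the duplex, and MEI1, MEI4, REC114 and ANKRD31 are needed on the chromosome axis for or in regulating that cut. PRDM9 marks the chromatin where cuts are made, DMC1 coats the resulting single strands and drives strand invasion, and the HORMA-domain proteins HORMAD1 and HORMAD2 decorate axes that have not yet synapsed until the ATPase TRIP13 helps strip them off. These events belong to spermatocytes, the cells that descend from SSCs, and transcripts of several such genes are known to appear before meiosis begins.

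Promoters are shown for 4 genes: Rec114 and Prdm9, which stand near the ends of the order of levels, and Hormad1 and Hormad2, which stand next to each other in it. The window runs from 250 bases before to 50 after a start site, 5′ to 3′ on the gene's strand, from RefSeq on GRCm38.p6. The positions are chr9:58741510-58741809 (minus strand) for Rec114, chr17:15564305-15564604 (minus strand) for Prdm9, chr3:95559427-95559726 (plus strand) for Hormad1 and chr11:4441033-4441332 (minus strand) for Hormad2. Capitals mark every match, on either strand, to the E-box CACGTG, to TCCCGC, the core of E2F sites, or to CNCCTCAG, a motif described for STRA8 in the mouse.
Rec114: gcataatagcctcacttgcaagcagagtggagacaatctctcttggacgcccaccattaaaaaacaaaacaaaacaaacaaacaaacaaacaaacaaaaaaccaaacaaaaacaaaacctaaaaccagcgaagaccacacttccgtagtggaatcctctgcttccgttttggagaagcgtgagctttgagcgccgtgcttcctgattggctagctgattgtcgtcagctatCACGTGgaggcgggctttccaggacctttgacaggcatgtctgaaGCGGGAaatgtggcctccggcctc
Prdm9: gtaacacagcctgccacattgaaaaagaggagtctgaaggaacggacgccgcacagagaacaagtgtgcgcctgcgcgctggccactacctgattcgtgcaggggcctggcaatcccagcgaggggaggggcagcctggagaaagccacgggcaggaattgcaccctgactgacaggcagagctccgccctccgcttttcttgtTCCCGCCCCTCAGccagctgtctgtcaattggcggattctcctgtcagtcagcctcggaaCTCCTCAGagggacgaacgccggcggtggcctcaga
Hormad1: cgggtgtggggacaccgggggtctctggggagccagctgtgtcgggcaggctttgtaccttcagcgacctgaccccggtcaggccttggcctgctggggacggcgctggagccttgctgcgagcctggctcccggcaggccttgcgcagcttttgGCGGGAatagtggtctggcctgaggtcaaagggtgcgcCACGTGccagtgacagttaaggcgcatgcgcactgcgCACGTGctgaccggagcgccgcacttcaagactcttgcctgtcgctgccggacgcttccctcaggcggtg
Hormad2: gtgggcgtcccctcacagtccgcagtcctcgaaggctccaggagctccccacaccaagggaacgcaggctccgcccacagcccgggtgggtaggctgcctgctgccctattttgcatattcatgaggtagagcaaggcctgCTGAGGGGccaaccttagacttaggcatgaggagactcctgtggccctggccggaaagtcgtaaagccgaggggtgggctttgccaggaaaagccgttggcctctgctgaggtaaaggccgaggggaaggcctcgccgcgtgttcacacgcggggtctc

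Promoter sequences were matched for 9 of the 10 genes. The E-box stood in Hormad1, at 57 and 20 bases before the start site, and in Rec114, at 19 bases before it, and in no other matched gene. It is held by 7.15% of all 32851 promoters in the table and by 8.09% of its 27025 genes. TCCCGC or its complement stood in Rec114, Prdm9, Hormad1 and Dmc1, against 19.98% of all promoters and 22.05% of genes. The STRA8-type motif stood in Prdm9 at 2 places, the first overlapping the TCCCGC match by its first base, and once in Hormad2, against 7.94% of all promoters and 9.12% of genes. Hormad1 and Hormad2 thus shared none of the 3 motifs in these windows. A match describes letters and was not tied to binding in these cells.

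Positions are on mm10, as the deposited count table gives them. Those of the cutting machinery were Spo11 (chr2:172979842-172993576, plus strand), Mei1 (chr15:82069996-82126814, plus strand), Mei4 (chr9:81863670-82206007, plus strand), Rec114 (chr9:58652856-58741559, minus strand) and Ankrd31 (chr13:96748272-96910039, plus strand). Prdm9 (chr17:15543079-15564340, minus strand) is the gene of the site marker. The axis genes were Hormad1 (chr3:95559677-95587671, plus strand), Hormad2 (chr11:4345814-4441082, minus strand) and Trip13 (chr13:73911347-73937784, minus strand), and the recombinase gene was Dmc1 (chr15:79561497-79605108, minus strand).

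By level the 10 genes spanned a wide range, and the machinery was far from evenly represented in these libraries. Averaged over the 4 libraries, Rec114 led at 26.7 ± 7.75 FPKM (SD, n = 4), followed by Trip13 at 17.3 ± 3.75 FPKM. Hormad1, Hormad2 and Dmc1 formed a close group at 8.06 ± 2.42, 7.49 ± 1.49 and 7.17 ± 1.78 FPKM (SD, n = 4 each). Ankrd31 averaged 5.84 ± 4.76 FPKM, Mei4 3.32 ± 1.37 FPKM and Mei1 2.04 ± 0.88 FPKM (SD, n = 4 each). Prdm9 and Spo11, the genes for the site marker and the cutting enzyme, were lowest at 0.80 ± 0.36 and 0.75 ± 0.53 FPKM (SD, n = 4 each). Rec114 exceeded 83.4% of tested genes in mean deposited FPKM, Hormad1 59.5% and Spo11 21.1%. FPKM recomputed from counts and exonic bases averaged 1.96 times the deposited value for Spo11, 1.14 times for Prdm9 and 0.75 times for Mei4. Recomputed, Spo11 stood above Prdm9, and Dmc1 above Hormad1 and Hormad2. The order among these genes and the rank of Spo11 therefore hold for deposited FPKM only. The source of the mismatch was not tested.

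Most neighbours in this order were not separated by more than their spread. In deposited FPKM the ranges of neighbours over libraries did not overlap at 2 steps, between Trip13 and Hormad1 and between Mei1 and Prdm9. Neither step parted all genes above it from all genes below it. Ankrd31 reached 12.84 FPKM in library A, above Trip13 at 12.75 FPKM in WT replicate 1. On this scale Hormad2 was above Dmc1 in 2 of 4 libraries, and Prdm9 was above Spo11 in 2 of 4. Spo11 in library A, at 1.35 FPKM, lay above Mei1 in the same library, at 1.13 FPKM. By counts per exonic base it did so as well. The first place of Rec114 rests on a gene model that it partly shares. As counted, 251 of its 883 exonic bases, at chr9:58652856-58653106, also belong to Nptn, a gene on the opposite strand. The annotation GENCODE vM21 places 162 of these bases in Rec114 coding sequence and 89 in its UTR, and all of them in UTR of Nptn. The library kit is not stated to keep strand, so reads there cannot be told apart. Nptn held 2440 and 2215 counts in Tex11PM/Y and 2709 and 2295 counts in WT, and its part in the level of Rec114 was not tested.

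**Figure D1:**
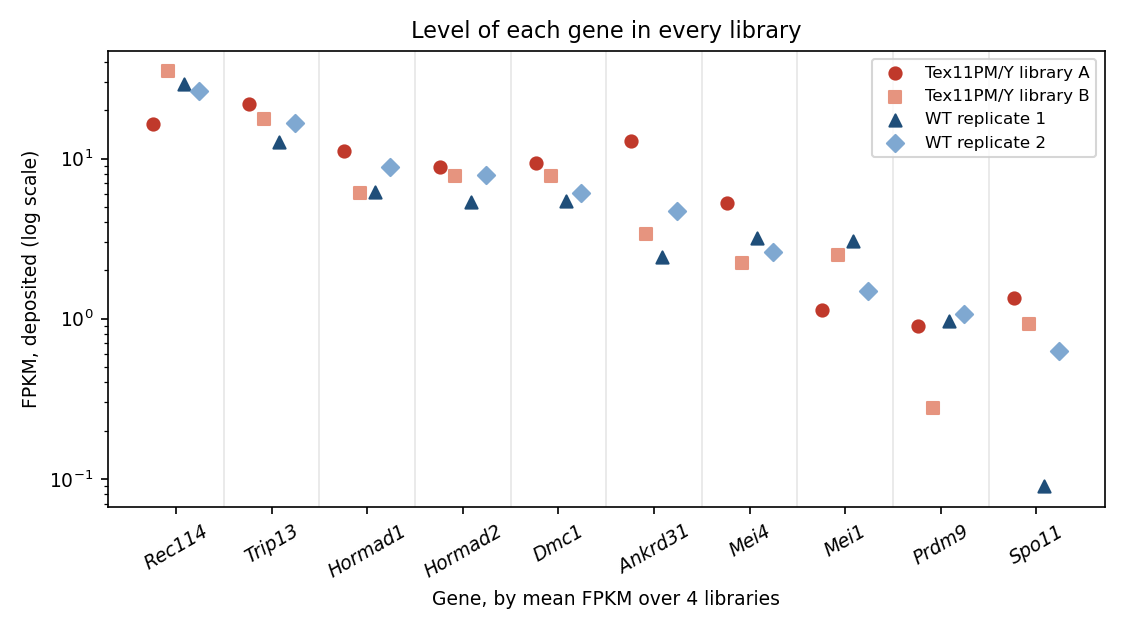
Deposited FPKM (log axis) of each of the 10 genes, ordered by their mean over 4 libraries, with 1 point for each library (red, Tex11PM/Y libraries A and B, and blue, WT replicates 1 and 2). Rec114 and Trip13 have the highest means, though Ankrd31 in library A reaches the lowest point of Trip13. Prdm9 and Spo11 lie near or below 1 FPKM, with a single low point for Spo11 in WT replicate 1 and for Prdm9 in library B.

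Between the genotypes none of the 10 genes passed the threshold. With edgeR 0 of 10 were called at an adjusted p under 0.05, against 0% of all tested genes in each direction. At an unadjusted p under 0.05 there were also 0, against 0.991% of tested genes higher and 1.71% lower, and DESeq2 called 0 of the 10. In the fit 7 genes had a log2 fold change above 0 and 3 (Mei1, Rec114 and Prdm9) one below, with a median of 0.29, beside 51% of all tested genes above 0 and an overall median of 0.01. Groups did not overlap in CPM for 3 genes that were higher in Tex11PM/Y (Spo11, Dmc1 and Trip13), where 16.1% of tested genes were apart in that direction, and for 0 that were lower, where 16.3% were. In FPKM 3 were apart and higher, beside 20.3% of tested genes on that scale, and 1 (Prdm9) was apart and lower, beside 12.8%.

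Spo11, the gene for the enzyme that makes the cut, had the largest fitted difference of the 10. It held 90 and 55 counts in Tex11PM/Y, or 4.53 and 2.74 CPM, and 7 and 39 counts in WT, or 0.39 and 1.97 CPM. Both Tex11PM/Y libraries lay above both WT libraries, but the WT replicates differed 5.01-fold from each other. The fit gave 1.61 ± 0.89 log2 (± standard error, edgeR adjusted p = 0.884), and ± after a log2 fold change below is again the standard error. Without WT replicate 1 it was 0.86 and without WT replicate 2 it was 3.18, fits that leave 1 WT library assumed to vary like the other genotype. The exact Poisson 95% interval was from 0.16 to 0.81 CPM in WT replicate 1 and from 1.40 to 2.70 CPM in WT replicate 2, so the WT replicates differed by more than counting error.

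Ankrd31, whose product recruits the break machinery to axes and above all to the pseudoautosomal region in the mouse, showed 1 library far above the rest. It held 89.4 and 24.2 CPM in Tex11PM/Y libraries A and B and 18.7 and 33.4 CPM in WT replicates 1 and 2. Library B therefore lay between the WT replicates, and the groups overlapped. Its log2 fold change of 1.12 ± 0.64 did not pass (edgeR adjusted p = 0.884). Without library A it turned to -0.11, and without library B it was 1.73 (edgeR adjusted p = 0.0563), each from 1 remaining Tex11PM/Y library. Without WT replicate 1 it was 0.73.

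Ankrd31 is also the longest of the 10, with 6132 exonic bases, and length moved with the libraries. Over all 2451 tested genes above 6 kb, library A stood a median of 0.26 log2 above the mean of the other libraries and WT replicate 1 stood 0.25 below. For the 3424 genes of 1 to 2 kb the same medians were -0.17 and 0.14. Ankrd31 deviated by 1.85 and -1.15 in those libraries. With the length trend of each library removed its values were 80.3 and 24.9 CPM in Tex11PM/Y and 20.2 and 32.8 CPM in WT, and its log2 fold change was 0.99.

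The partners MEI4, REC114 and MEI1, which are needed in the mouse for breaks to form, did not follow Ankrd31 as a group. Mei4 held 14.8 and 7.13 CPM in Tex11PM/Y and 11.01 and 7.64 CPM in WT, with library A highest and library B lowest (log2 fold change 0.23 ± 0.57). Rec114 went the other way within the genotype, with 16.7 and 32.3 CPM in Tex11PM/Y and 31.7 and 25.6 CPM in WT (log2 fold change -0.23 ± 0.45). Mei1 resembled Rec114 in being lowest in library A, with 6.35 and 11.2 CPM in Tex11PM/Y and 15.2 and 7.03 CPM in WT (log2 fold change -0.34 ± 0.60). All 3 groups of values overlapped between the genotypes. Each of the 3 changed sign when a single library was left out, Mei4 to -0.39, Rec114 to 0.17 and Mei1 to 0.02 without library A.

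Prdm9, the histone methyltransferase that chooses where breaks fall, was low in all libraries and lowest in 1 of them. It held 83 and 24 counts in Tex11PM/Y, or 4.18 and 1.20 CPM, and 77 and 77 counts in WT, or 4.33 and 3.89 CPM. Library A matched the WT libraries, and the negative log2 fold change of -0.61 ± 0.77 (edgeR adjusted p = 0.902) rested on library B. Without that library it was -0.02. The interval of library B, from 0.77 to 1.78 CPM, lay below that of library A, from 3.33 to 5.18 CPM.

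The genes for the axis proteins and for the ATPase that removes them differed by less than 2-fold between the libraries of each genotype. Hormad1, needed in the mouse for normal break numbers and synapsis, held 19.9 and 10.96 CPM in Tex11PM/Y and 12.5 and 15.7 CPM in WT (log2 fold change 0.13 ± 0.49). Both WT values lay between the Tex11PM/Y values. Its log2 fold change was -0.36 without library A. Hormad2, needed in the mouse for the checkpoint that answers unsynapsed axes, held 22.3 and 16.1 CPM in Tex11PM/Y and 12.8 and 17.4 CPM in WT (log2 fold change 0.35 ± 0.44). The value was 0.10 without library A and 0.12 without WT replicate 1.

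Trip13 was the best covered of the 10 in counts, with 1814 and 1414 in Tex11PM/Y and 1024 and 1367 in WT. These were 91.4 and 70.5 CPM in Tex11PM/Y and 57.5 and 69.1 CPM in WT. The groups did not overlap, but library B lay close above WT replicate 2. Its log2 fold change of 0.35 ± 0.32 did not pass (edgeR adjusted p = 0.884), and was 0.16 without library A and 0.20 without WT replicate 1. TRIP13 also acts on the HORMA protein MAD2 in mitosis, so its transcript is not confined to meiotic cells.

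Dmc1, the meiosis-specific recombinase, had the closest WT pair in CPM, with 29.1 and 20.3 CPM in Tex11PM/Y and 16.7 and 16.7 CPM in WT. Counting error alone was far wider than that gap, with intervals from 14.9 to 18.8 and from 14.9 to 18.6 CPM in WT. In deposited FPKM the WT values were 5.42 and 6.11. Both Tex11PM/Y libraries were above both WT libraries. Means were 24.7 ± 6.24 CPM in Tex11PM/Y and 16.7 ± 0.038 CPM in WT (SD, n = 2 each), and the log2 fold change of 0.56 ± 0.41 did not pass (edgeR adjusted p = 0.884). It stayed above 0 with each library left out, from 0.28 without library A to 0.75 without library B, and so did those of Spo11, Hormad2 and Trip13. For Dmc1, Spo11 and Trip13 this follows from groups that were apart in CPM, and adds nothing to that result. The log2 fold change of Prdm9 stayed below 0, from -1.78 to -0.022.

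**Figure D2:**
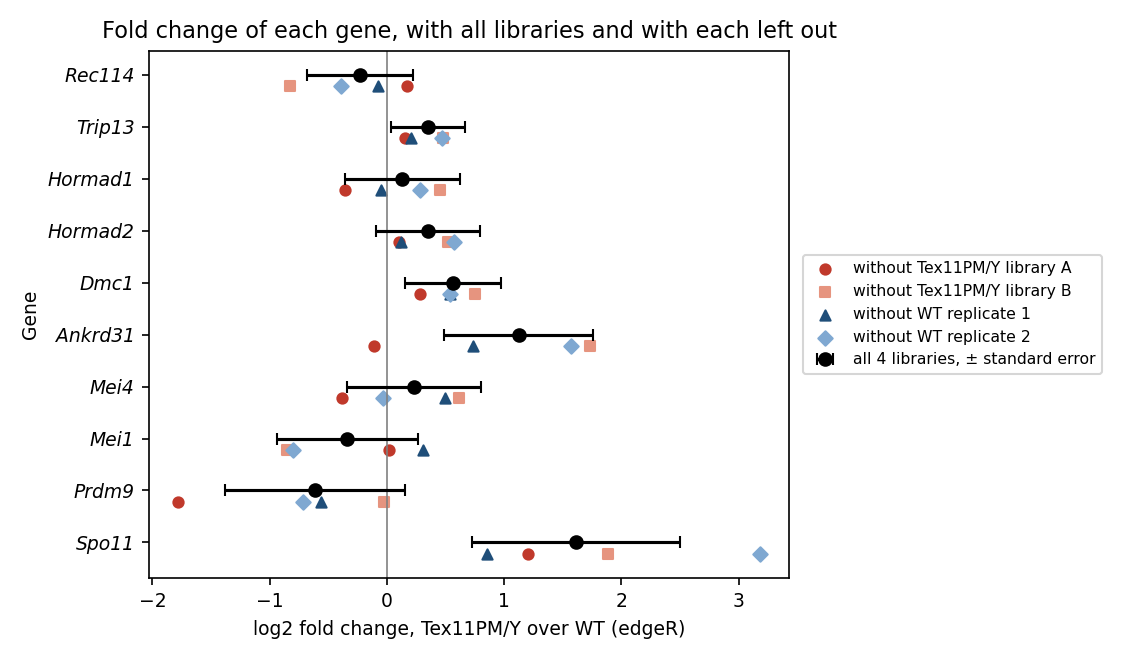
The log2 fold change of Tex11PM/Y over WT for each gene from edgeR with all 4 libraries (black points, bars are ± 1 standard error) and with each library left out in turn (coloured points). Without library A Ankrd31 moves to -0.11 and Prdm9 to -1.78, and without WT replicate 2 Spo11 moves to 3.18.

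The libraries of a genotype differed from each other for nearly all of these genes. The exact Poisson 95% intervals of libraries A and B were apart for 10 of 10 genes, and those of the WT replicates for 7 of 10, the exceptions being Prdm9, Hormad1 and Dmc1. The share of all tested genes with intervals apart was not computed. The median absolute log2 difference of the 10 genes was 0.84 between libraries A and B, beside 0.52 for all tested genes. Between the WT replicates it was 0.39, beside 0.50. Between library B and WT replicate 2 it was 0.40, beside 0.25. The ratio of libraries A and B ran from 1.297-fold for Trip13 to 3.70-fold for Ankrd31, and that of the WT replicates from 1.00-fold for Dmc1 to 5.01-fold for Spo11. Library A was the highest of the 4 libraries for 7 genes, library B for 1 (Rec114), WT replicate 1 for 2 (Mei1 and Prdm9) and WT replicate 2 for 0, where 35%, 16.3%, 34.2% and 14.4% of tested genes were highest in those libraries. Library A was the lowest for 2 genes (Mei1 and Rec114), library B for 3 (Mei4, Prdm9 and Hormad1), WT replicate 1 for 4 (Spo11, Ankrd31, Hormad2 and Trip13) and WT replicate 2 for 1 (Dmc1), where 34.4%, 16.3%, 34.4% and 14.9% of tested genes were lowest there. Ankrd31 and Hormad2 shared the order library A, WT replicate 2, library B, WT replicate 1, from high to low. That order was not particular to them, as Rad50, Brca2, Brca1 and Dazl among the partner genes below had it too. Rec114 and Mei1 shared the order library B or WT replicate 1 first and library A last, as did the partner gene Zcwpw1.

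**Figure D3:**
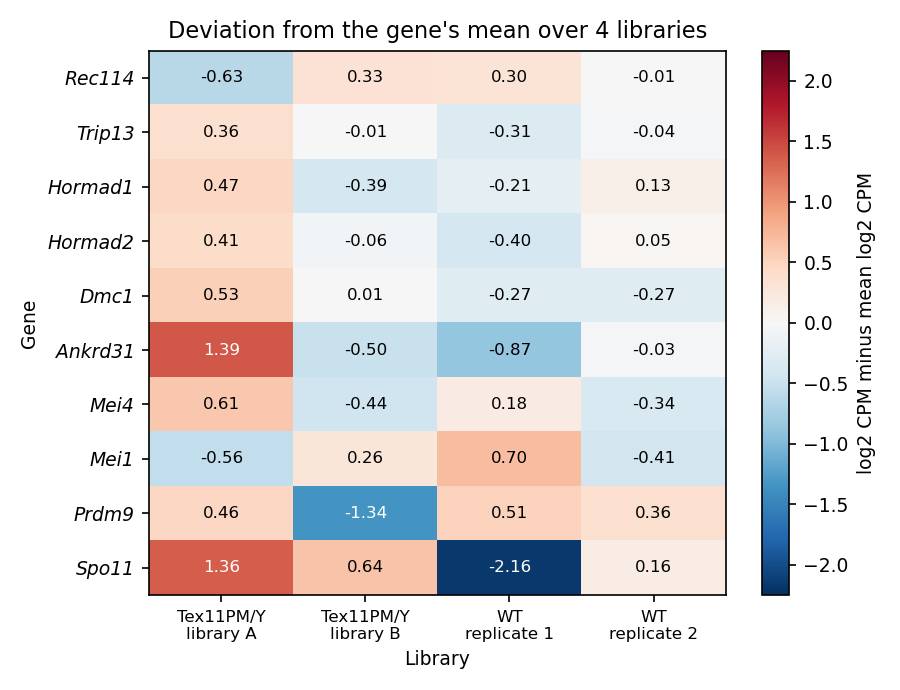
Log2 CPM of each gene (rows) in each library (columns) minus the gene's mean over the 4 libraries, with the value printed in each cell. Library A is above the mean for 8 genes and below it for Rec114 and Mei1, and the largest deviation is -2.16 for Spo11 in WT replicate 1.

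Because these genes are expressed in germ cells, they were also set against 8 germ cell genes measured in the same libraries (Ddx4, Dazl, Dnd1, Sall4, Zbtb16, Lin28a, Taf4b and Uchl1). The geometric mean of that panel was 331 and 325 CPM in Tex11PM/Y and 232 and 320 CPM in WT, lowest in WT replicate 1, where fibroblast markers were highest. Of the 8 panel genes 6 were fitted higher in Tex11PM/Y and 2 lower (median log2 fold change 0.34), and the groups of Zbtb16 were apart. The panel is therefore not a neutral reference between the genotypes. In bulk RNA, fewer germ cells and less RNA per germ cell cannot be told apart. As a share of the panel, Trip13 stood at 27.6% and 21.7% in Tex11PM/Y and at 24.8% and 21.6% in WT, so its groups overlapped. Dmc1 stood at 8.81% and 6.24% in Tex11PM/Y and at 7.22% and 5.21% in WT, and overlapped as well. Spo11 remained apart, at 1.37% and 0.84% in Tex11PM/Y and at 0.17% and 0.62% in WT. On this scale 1 of the 10 genes was apart and higher and 0 were apart and lower. In the fit 5 of 10 were higher, and the median log2 fold change of the 10 was -0.0043, beside -0.26 for all tested genes. The shares of all tested genes that were apart or fitted higher on this scale were not computed.

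Transcripts of later germ cells were also measured. Differentiating spermatogonia had 5 markers, Kit, Sohlh1, Sohlh2, Dmrtb1 and Stra8. These summed to 294 and 472 CPM in Tex11PM/Y and to 475 and 397 CPM in WT, mostly from Sohlh1 and Sohlh2. The 8 spermatocyte markers summed to 103 and 111 CPM in Tex11PM/Y and to 121 and 131 CPM in WT, of which Tbpl1, also expressed outside meiosis, gave 66.6 and 63.6 CPM in Tex11PM/Y and 66.1 and 59.3 CPM in WT. Hspa2, a chaperone gene of spermatocytes, held 19.7 and 17.8 CPM in Tex11PM/Y and 31.0 and 39.4 CPM in WT, so its groups were apart (log2 fold change -0.91 ± 0.38, edgeR unadjusted p = 0.0481, adjusted p = 0.884). Piwil1, a gene of the piRNA pathway, held 12.04 and 17.3 CPM in Tex11PM/Y and 15.9 and 18.1 CPM in WT. Ldhc, a lactate dehydrogenase gene of the testis, held 2.17 and 7.72 CPM in Tex11PM/Y and 5.39 and 9.41 CPM in WT. Per length, Hspa2 stood at 6.52 and 6.12 FPKM in Tex11PM/Y and at 9.25 and 12.9 FPKM in WT, a range that overlapped that of Hormad1. Adam3 and Pgk2, genes of later spermatocytes and spermatids, were at 0 counts in WT replicate 1 and at no more than 0.25 CPM elsewhere. The 7 spermatid markers summed to 4.33 and 5.03 CPM in Tex11PM/Y and to 4.66 and 5.11 CPM in WT, mostly from Spaca1. The part of such cells in the levels of the 10 genes was not tested. Sertoli markers summed to 16.9 and 14.6 CPM in Tex11PM/Y and to 12.2 and 26.3 CPM in WT, and macrophage markers to 23.1 and 1116 CPM in Tex11PM/Y and to 587 and 457 CPM in WT.

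The proteins that work with these 10 were represented by 6 further lists of 56 genes. All 56 were tested, 35 were fitted higher and 21 lower, with a median log2 fold change of 0.11, and 0 passed edgeR's threshold or an unadjusted p under 0.05. Groups were apart in CPM for 8 that were higher and 2 that were lower, beside 16.1% and 16.3% of all tested genes. Library A was the highest for 30 of them and WT replicate 1 the lowest for 25, beside 35% and 34.4% of all tested genes.

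Among 9 partners of break formation and of PRDM9, 6 were fitted higher and 3 lower (median log2 fold change 0.31). Top6bl, the second subunit of the cutting complex, was also low, with 1.19 and 1.49 FPKM in Tex11PM/Y and 1.41 and 1.28 FPKM in WT. Iho1, which binds HORMAD1 and brings the break machinery to the axis, held 6.38 and 2.96 FPKM in Tex11PM/Y and 3.11 and 3.60 FPKM in WT, again highest in library A. Zcwpw1, a reader of the marks that PRDM9 writes, stood at 50.3 and 62.9 FPKM in Tex11PM/Y and at 68.5 and 52.0 FPKM in WT, far above Prdm9 itself. Hells, a remodeller that opens PRDM9 sites, had a log2 fold change of 0.72 ± 0.46, and Ewsr1, reported to bind PRDM9 in the mouse, 0.59 ± 0.33. Ehmt2, a histone methyltransferase, had -0.08 ± 0.35.

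The 6 genes of break signalling and resection were all fitted higher, with a median log2 fold change of 0.68. Exo1, the exonuclease that lengthens single strands, held 128 and 91.5 CPM in Tex11PM/Y and 56.9 and 81.8 CPM in WT, so its groups were apart (log2 fold change 0.66 ± 0.34, edgeR adjusted p = 0.884). Rad50, of the complex that trims SPO11 from ends, held 209 and 90.1 CPM in Tex11PM/Y and 57.1 and 109 CPM in WT, and overlapped. Atm, the kinase that limits break number, held 286 and 78.7 CPM in Tex11PM/Y and 55.2 and 120 CPM in WT, and overlapped as well. Mre11a, the nuclease of the same complex as Rad50, had a log2 fold change of 0.32 ± 0.30. These genes serve DNA repair in all dividing cells, and none passed the threshold. Several are also long, with 10006 exonic bases for Atm, 7796 for Exo1, 5763 for Mre11a and 5153 for Rad50. Rbbp8 and Nbn, the others of the list, have 3787 and 2533. Brca2 and Mga, given below, have 10725 and 13931. The part of the length trend described for Ankrd31 in the fold changes of these genes was not tested.

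Of 16 genes for loading recombinases, 10 were fitted higher and 6 lower (median 0.09). Brca2, a DNA repair gene needed for meiotic recombination in the mouse, held 182 and 60.7 CPM in Tex11PM/Y and 32.9 and 75.3 CPM in WT (log2 fold change 1.17 ± 0.61). Fignl1, an AAA ATPase gene, had 0.65 ± 0.41. Swi5 and Sfr1, whose products form a complex, had the highest levels of this list and log2 fold changes of -0.20 ± 0.29 and 0.10 ± 0.28.

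The list of HORMA-domain and asynapsis checkpoint genes had 7 of 13 fitted higher and 6 lower (median 0.08). Mad2l2, a HORMA-domain protein of DNA repair, had the smallest p of its list, with 7.76 and 12.9 CPM in Tex11PM/Y and 22.4 and 20.1 CPM in WT (log2 fold change -1.04 ± 0.47, edgeR adjusted p = 0.884). Mad2l1, the mitotic HORMA protein on which TRIP13 acts, had a log2 fold change of 0.21 ± 0.32, Topbp1 0.36 ± 0.36 and Brca1 0.50 ± 0.40.

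Genes of meiotic entry did not move together, with 3 of 7 fitted higher and 4 lower (median -0.05). Stra8, which starts the meiotic programme with MEIOSIN, held 17.4 and 8.92 CPM in Tex11PM/Y and 10.8 and 20.9 CPM in WT. Its partner Meiosin held 8.71 and 8.77 CPM in Tex11PM/Y and 12.9 and 5.71 CPM in WT. Dazl and Sycp3 led in level, with log2 fold changes of 0.49 ± 0.37 and -0.05 ± 0.36, and Ythdc2 had 0.68 ± 0.55. Of 5 genes of the complex that represses germline genes, 3 were fitted higher and 2 lower. Mga, its E-box binding subunit, held 753 and 221 CPM in Tex11PM/Y and 185 and 264 CPM in WT (log2 fold change 1.12 ± 0.56), while its partner Max had -0.29 ± 0.33. E2f6 had -0.05 ± 0.37 and Pcgf6 0.59 ± 0.40.

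**Figure D4:**
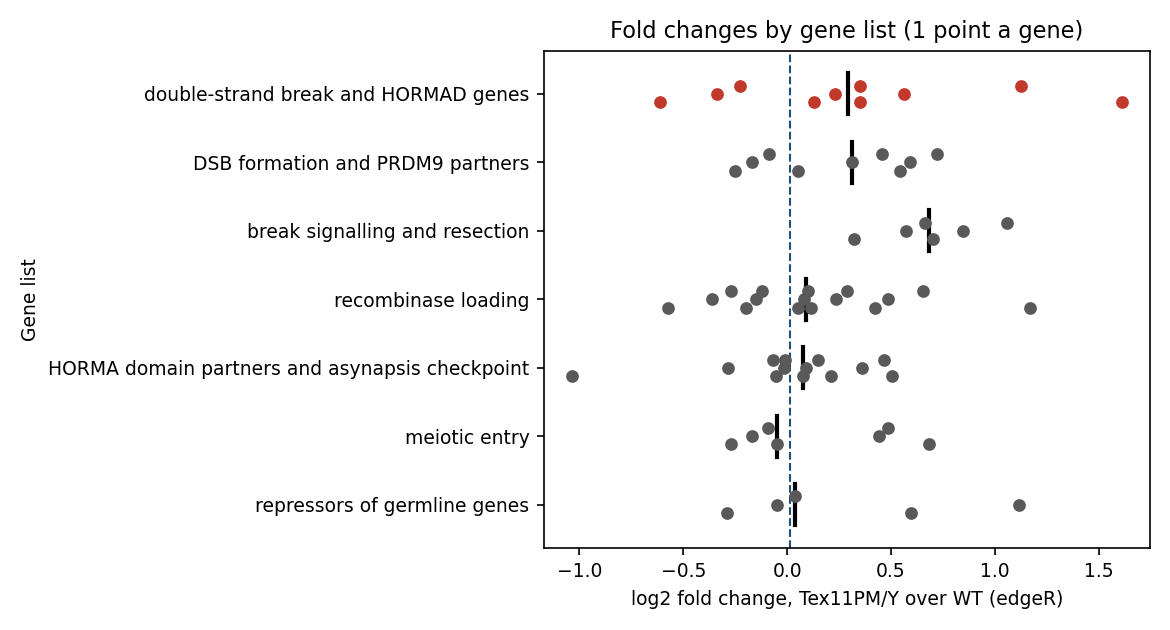
The log2 fold change of Tex11PM/Y over WT of every gene in the set of 10 (red) and in the 6 lists of partner genes (grey, DSB standing for double-strand break), with a black bar at each list's median and a dashed line at 0.01, the median of all tested genes. The points lie on both sides of the line in all lists except break signalling and resection, whose 6 genes lie between 0.32 and 1.06.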

How the data were processed

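Poly(A) RNA of 2 Tex11PM/Y and 2 WT libraries was analysed. The authors deposited raw whole-number counts per gene for 55335 genes, FPKM values for 37653 genes and TPM values for the same genes, per the file headers. Per the submitters' processing notes the build was mm10, and the tools listed, without version or role, were DESeq2, StringTie, featureCounts, STAR and fastp. For the annotation, a release was not given in the sources used. GENCODE vM21, of the same build, was used for coding and UTR spans only.

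Counts were fitted with edgeR 4.0.16 under R 4.3.3 (low counts removed by filterByExpr, TMM scaling, robust quasi-likelihood F tests, genotype as the only term, Benjamini-Hochberg adjustment over 17262 genes, threshold 0.05). Standard errors are the log2 fold change over the root of F. CPM values use TMM library sizes. Alternatives were DESeq2 1.42.0, other scalings and filters, limma 3.58.1 on log2(FPKM + 1), log2(FPKM + 0.1) and log2(TPM + 1), each library left out, and, chosen after seeing the data, removal of a length trend. An exact permutation test of 2 against 2 libraries cannot go below 0.333. No pair of libraries agreed within sampling noise (chi-square per degree of freedom 18.6 to 217). The closest pair, library B and WT replicate 2 at 18.6, crossed the genotypes. Libraries A and B stood at 96.5 and the WT replicates at 94.8, so libraries of 1 genotype were not the most alike.

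The members and lists were chosen with earlier results of these data known. Named partner genes were the 2 highest in FPKM and the 2 with the smallest p of each list. Top6bl, Iho1, Zcwpw1, Atm, Stra8, Meiosin, Nptn, Tbpl1, Hspa2, Piwil1, Ldhc, Adam3, Pgk2 and Spaca1 were added after their values were seen.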

Additional observations from a re-analysis of the deposited data

How the results depend on the processing

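Of 140 values of single genes under 14 alternatives, 130 kept their direction and their side of the threshold and 10 changed sign, and none passed the threshold, the lowest adjusted p being 0.0563. With libraries scaled to the germ cell panel, Mei4 turned to -0.097 and Hormad1 to -0.13, and the median of the 10 genes to -0.0043. With each library left out, log2 fold changes ranged from -0.85 to 0.31 for Mei1 (0.02 without library A, 0.31 without WT replicate 1), from -0.39 to 0.62 for Mei4 (-0.39 without library A, -0.036 without WT replicate 2), from -0.83 to 0.17 for Rec114 (0.17 without library A), from -0.11 to 1.73 for Ankrd31 (-0.11 without library A) and from -0.36 to 0.45 for Hormad1 (-0.36 without library A, -0.053 without WT replicate 1). The median of the 10 genes ranged from 0.059 to 0.50 with a library left out, lowest without library A. Calls over all genes were 1 with DESeq2, 50 with no filter on low counts and from 0 to 518 with a library left out, 518 being without library B. None of the 10 genes was among them. The cause was not tested. Removing the length trend changed no direction among the 10. Spo11 and Prdm9, with as few as 7 and 24 counts in a library, are limited by depth as well as by spread. No paired analysis was possible because the Tex11PM/Y columns are identical in name and replicate number.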
